A study of Mus musculus with 10 samples.

Results

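The Toll-like receptors Tlr1 to Tlr9 and the adaptor Myd88, 10 genes chosen by name, were followed on 10 dual dye arrays of mouse hemibrain RNA. Of these, 9 had at least 1 probe among the 18539 genes that could be named on the array, and Tlr3 had 2, giving 10 probes of 41174. Tlr5 had no probe matched by its RefSeq accession. Each array carried RNA in Cy-5 from the left hemibrain of 1 male C57BL/6J mouse, and another RNA in Cy-3. The labels name another animal for each array. Mice were housed singly from 3 weeks of age, fed either a standard lab diet (SD) or an n-3 PUFA enriched diet of fish oil (FD) for about 20 weeks, and killed at 5 months. By their diet entries, all Cy-5 samples came from FD-fed mice and Cy-3 held a pool of SD hemibrains, whereas the sample descriptions read as controls. The methods name arrays of both diets, but fewer in all than the 10 followed here. The methods and the labeling protocol name a commercial reference RNA. Because these sources contradict each other, the 10 arrays were treated as a single group of hemibrains, the Cy-3 RNA is called the reference, and FD was not compared with SD. If the arrays held both diets, the spread between arrays includes that of diet. Dyes were not swapped, so a difference between the RNAs and a difference between the dyes cannot be told apart.

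Toll-like receptors are innate immune sensors that recognize molecules shed by microbes or by damaged cells. Tlr1, Tlr2, Tlr4, Tlr5 and Tlr6 sit mainly at the cell surface and bind lipopeptides, lipopolysaccharide or flagellin, whereas Tlr3, Tlr7, Tlr8 and Tlr9 sense nucleic acids in endosomes. All except Tlr3 signal through Myd88, which recruits kinases of the Irak family and leads to NF-kB and to inflammatory cytokines. Tlr3 signals through the adaptor Ticam1. In the brain these receptors are best known from microglia, the resident macrophages, and several of them are also made by astrocytes, neurons and endothelium.

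Upstream sequences are shown for Tlr2 and Myd88, which were lower in the hemibrain, and for Tlr3 and Tlr9, which were higher, so that genes of opposite ratio can be read side by side. Each is the 250 bases before the transcript start in RefSeq (GRCm38.p6), written 5′ to 3′ on the strand of the gene. These regions were chr3:83841609-83841858 (minus strand) for Tlr2, chr9:119340019-119340268 (minus) for Myd88, chr8:45410381-45410630 (minus) for Tlr3 and chr9:106222348-106222597 (plus) for Tlr9. Capitals mark matches, on either strand, to GAGGAA (a core bound by the myeloid factor PU.1), the interferon-stimulated response element (2 copies of GAAA with any 2 bases between) or TGACTCA (AP-1). No motif contains another, and overlapping matches were merged.
Tlr2: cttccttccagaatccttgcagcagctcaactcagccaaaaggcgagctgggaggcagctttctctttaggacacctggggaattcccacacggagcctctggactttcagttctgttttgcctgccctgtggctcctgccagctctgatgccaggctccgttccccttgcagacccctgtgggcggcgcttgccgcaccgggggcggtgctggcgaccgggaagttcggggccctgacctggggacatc
Myd88: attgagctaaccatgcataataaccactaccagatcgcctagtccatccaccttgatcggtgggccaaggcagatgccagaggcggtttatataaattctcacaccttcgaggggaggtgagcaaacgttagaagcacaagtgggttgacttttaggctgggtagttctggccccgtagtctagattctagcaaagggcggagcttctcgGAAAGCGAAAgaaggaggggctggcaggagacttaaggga
Tlr3: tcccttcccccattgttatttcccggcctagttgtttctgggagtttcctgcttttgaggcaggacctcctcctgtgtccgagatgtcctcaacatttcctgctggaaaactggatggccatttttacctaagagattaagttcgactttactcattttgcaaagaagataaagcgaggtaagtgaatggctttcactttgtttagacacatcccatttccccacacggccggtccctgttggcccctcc
Tlr9: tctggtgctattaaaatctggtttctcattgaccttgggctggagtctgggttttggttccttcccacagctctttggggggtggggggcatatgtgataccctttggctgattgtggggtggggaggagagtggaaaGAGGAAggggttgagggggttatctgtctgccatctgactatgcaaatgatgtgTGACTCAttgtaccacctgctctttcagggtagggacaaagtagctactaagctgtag

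The window of Myd88 held the interferon-stimulated response element, starting 40 bases before the transcript start, and that of Tlr9 held GAGGAA at 112 and TGACTCA at 58 bases before it. The windows of Tlr2 and Tlr3 held none of these letters. Promoter entries were found for 8 of the 10 genes, with 10 start sites in all. Among the 8 genes, GAGGAA occurred in 3 (Tlr1, Tlr8 and Tlr9), the interferon-stimulated response element in 2 (Myd88 and Tlr6) and TGACTCA in 1 (Tlr9). Over 32851 promoter windows of the same length, the shares with a match were 23.3%, 2.98% and 4.46%. These shares are per window, and per window the counts were 3, 2 and 1 of the 10 start sites. A match describes the letters and not a bound site.

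The hemibrain RNA held less signal than the reference for every surface receptor measured and for Myd88, and more for Tlr3 and Tlr9. Values are log2 Cy-5/Cy-3 ratios, so that negative values mean less signal in the hemibrain. Tested with limma against a ratio of 0, with Benjamini-Hochberg adjustment over all 41174 probes, 6 of the 10 probes were lower (Tlr1, Tlr2, Tlr4, Tlr6, Tlr7 and Myd88), 3 were higher (both Tlr3 probes and Tlr9) and that of Tlr8 was not called. Over all probes 39.5% were lower and 37.4% were higher, so a call in either direction was common on these arrays. The median log2 ratio was -1.69 over the 10 probes and 0.00124 over all probes. In whole hemibrain, fewer cells of a type and less RNA per cell cannot be told apart.

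**Figure D1:**
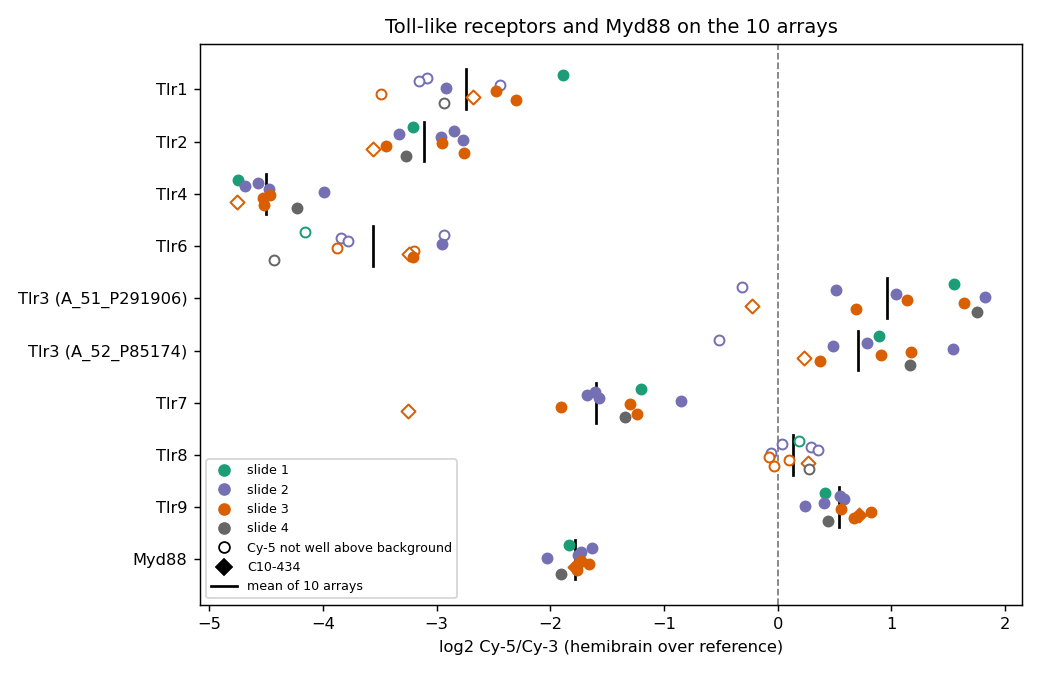
Log2 Cy-5/Cy-3 (hemibrain over reference, horizontal axis) of each probe on the 10 arrays, with 1 point per array, colours for slides and a bar at the mean. Open points were not well above the Cy-5 background, and diamonds mark C10-434. Points of Tlr1, Tlr2, Tlr4, Tlr6, Tlr7 and Myd88 all lie below 0, and those of Tlr9 all lie above it.

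Tlr4, the lipopolysaccharide receptor, had the lowest ratio of the 10 probes. Its log2 ratio ranged from -4.75 (C10-434) over a median of -4.53 to -4.00 (C10-423). All arrays were far below 0, and the whole span between arrays was small beside the distance from 0. The mean was -4.50 ± 0.23 (SD, n = 10), that is 22.6-fold lower in the hemibrain (95% interval 20.0 to 25.6), with an adjusted p of 1.06e-13 from limma. Its Cy-5 signal was well above background on 9 of 10 arrays, at a median of 98.7 against 2284 in Cy-3.

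Tlr2, which pairs with Tlr1 or Tlr6 to bind bacterial lipopeptides, ranged from -3.56 (C10-434) over -3.09 to -2.76 (C10-435). Again no array came near 0. The mean was -3.11 ± 0.29 (SD, n = 10), or 8.64-fold lower (7.49 to 9.97), with an adjusted p of 6.42e-12 from limma. The probe was well above the Cy-5 background on 9 arrays.

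Both partners of Tlr2 were dim in the hemibrain. Tlr1, the partner for triacylated lipopeptides, ranged from -3.49 (C10-425) over -2.80 to -1.89 (C10-413), with a mean of -2.74 ± 0.47 (SD, n = 10) and an adjusted p of 9.95e-10 from limma. Tlr6, the partner for diacylated lipopeptides, ranged from -4.43 (C10-437) over -3.51 to -2.93 (C10-415), with a mean of -3.56 ± 0.52 (SD, n = 10) and an adjusted p of 1.71e-10. In the Cy-3 reference both were well above background on all 10 arrays, but in Cy-5 Tlr1 was so on 4 and Tlr6 on 2. On the arrays where both dyes were well above background, Tlr1 lay between -2.92 and -1.89 and Tlr6 between -3.21 and -2.96. On the other arrays the ratio rests on a Cy-5 signal near background, so its size is less certain than its direction. In RefSeq the Tlr6 gene overlaps Fam114a1 and Mir574. The size of all 4 surface receptor ratios depended on the processing. An alternative used background-subtracted signals with a floor of 0.5, an offset of 50 in both dyes, and loess within each array. With it the mean log2 ratios were -1.11 for Tlr1, -2.42 for Tlr2, -2.84 for Tlr4 and -1.65 for Tlr6, all still called lower. Loess alone gave -2.53, -2.87, -4.29 and -3.37 in the same order.

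**Figure D2:**
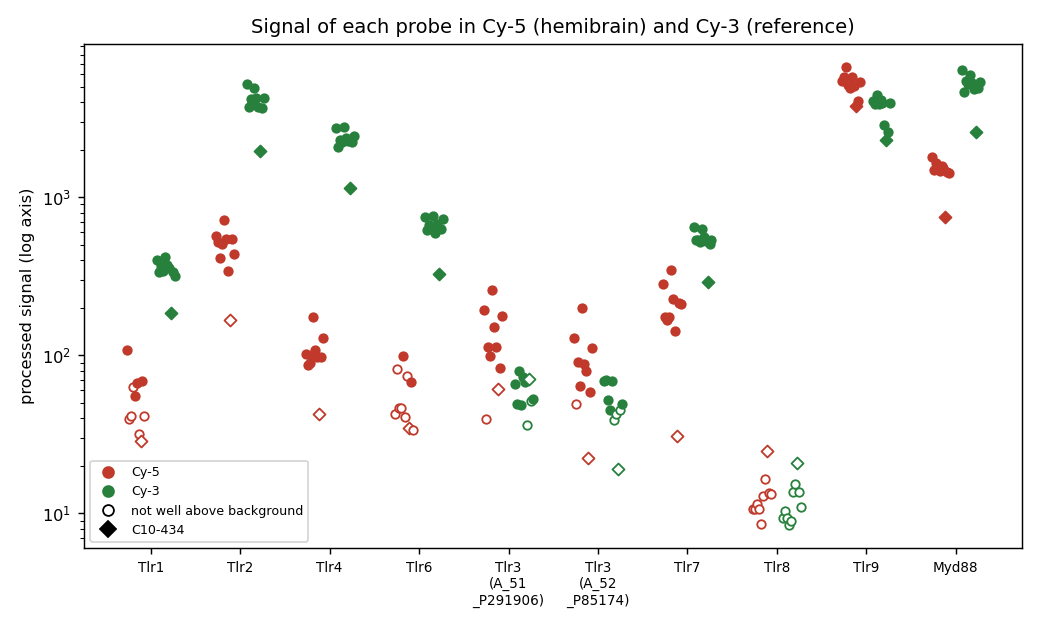
Processed signal (log axis, arbitrary units) of each probe in Cy-5 (hemibrain, red) and Cy-3 (reference, green) on the 10 arrays. Open points were not well above background, and diamonds mark C10-434. Both dyes of Tlr8 are open throughout, whereas Tlr9 and Myd88 are filled throughout, and signals of different probes are not comparable.

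The endosomal receptors did not share a direction. Tlr9, which senses unmethylated CpG DNA, was the receptor measured most fully, well above background in both dyes on all 10 arrays. Its log2 ratio ranged from 0.24 (C10-423) over 0.55 to 0.82 (C10-425), above 0 on every array. The mean was 0.54 ± 0.17 (SD, n = 10), a signal 1.46-fold higher in the hemibrain (1.31 to 1.62), with an adjusted p of 1.10e-05 from limma. The arrays came from 4 slides, 2 of them with 4 arrays each, and within these 2 the means were 0.45 and 0.69, with adjusted p of 0.0211 and 0.00203.

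Tlr3, the sensor of double-stranded RNA, was read by 2 probes that moved together but spread widely. Probe A_51_P291906 ranged from -0.31 (C10-415) over 1.09 to 1.83 (C10-423), above 0 on 8 arrays. Probe A_52_P85174 ranged from -0.52 (C10-415) over 0.84 to 1.54 (C10-423), above 0 on 9 arrays. Array C10-415 was lowest and C10-423 highest by either probe. The means were 0.96 ± 0.78 and 0.70 ± 0.59 (SD, n = 10), that is 1.95-fold (1.40 to 2.72) and 1.63-fold higher (1.26 to 2.10), with adjusted p of 0.00153 and 0.00205 from limma. Where both dyes were well above background, on 6 arrays for the first probe and 5 for the second, every ratio was above 0, at 0.51 to 1.83 and 0.49 to 1.54. That choice leaves out arrays with a low Cy-5 signal, so it favours ratios above 0 and does not bear on the direction. Where Cy-5 was not well above background, the mean ratios were -0.27 and -0.14. With the normexp setting, which also adds an offset of 50 and loess, the first probe fell to 0.24 (limma adjusted p = 0.0152). The second, at 0.13, lost its call (limma adjusted p = 0.0993). Neither probe passed the threshold within slide 2 (C10-415, C10-416, C10-417 and C10-423), at adjusted p of 0.0747 and 0.144. Within slide 3 (C10-424, C10-425, C10-434 and C10-435) the first missed it at 0.0615 and the second passed it at 0.0231.

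Across the 10 arrays the Tlr3 probes correlated with a Pearson r of 0.864 (permutation p = 0.00066) and a Spearman rho of 0.891 (permutation p = 0.00123), 2-sided. Without C10-415 and C10-434, the arrays farthest from the median, r was 0.705. Their signal varied more in Cy-5 than in Cy-3. Over the 9 arrays other than C10-434, the Cy-5 signal of the probes spanned 6.47-fold and 4.07-fold. The Cy-3 signal spanned 2.21-fold and 1.80-fold. The lowest Cy-5 signals were on C10-415, not well above background. A wider Cy-5 span was not particular to Tlr3. Tlr1 (3.41-fold against 1.32-fold), Tlr6 (2.90 against 1.28), Tlr7 (2.47 against 1.28), Tlr2, Tlr4 and Tlr8 had it too. Tlr9 (1.63 against 1.73) and Myd88 (1.26 against 1.38) did not. The median Cy-5 signal of these arrays also ranged more widely than that of Cy-3. Its part in the Tlr3 values was not tested. Both Tlr3 probes read the same RNA on the same array, so their agreement includes whatever that RNA and that hybridization share.

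Tlr7, a sensor of single-stranded RNA, ranged from -3.25 (C10-434) over -1.45 to -0.85 (C10-423). It was below 0 on all arrays, but C10-434 stood apart from the next lowest array, at -1.91, and there the probe was not well above the Cy-5 background. The mean was -1.59 ± 0.65 (SD, n = 10), with an adjusted p of 4.44e-06 from limma, or 3.02-fold lower (2.28 to 4.00). It stayed called lower but was smaller in size with background subtraction, at -0.80, and with normexp, at -0.56. Without C10-434 the mean was -1.41 ± 0.31 (SD, 9 arrays). C10-434 was also the array with the fewest probes well above the Cy-5 background, 49.8% against 68.2% to 76.9% on the others. Over the 10 arrays the Tlr7 ratio followed that share with r = 0.977 (permutation p = 9.00e-05, adjusted 0.00162) and rho = 0.903 (adjusted p = 0.0164). Without C10-434 and C10-423, the 2 arrays farthest from the median share, r was 0.826. This was 1 of 18 relations computed, the ratios of 9 probes against that share and against the microglial markers, and the part of detection in the Tlr7 values was not tested further.

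Tlr8, the remaining single-stranded RNA sensor, was not well above background in either dye on any array. Its log2 ratio lay between -0.08 and 0.35, around 0, with a limma adjusted p of 0.0865, and no fold is given.

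**Figure D3:**
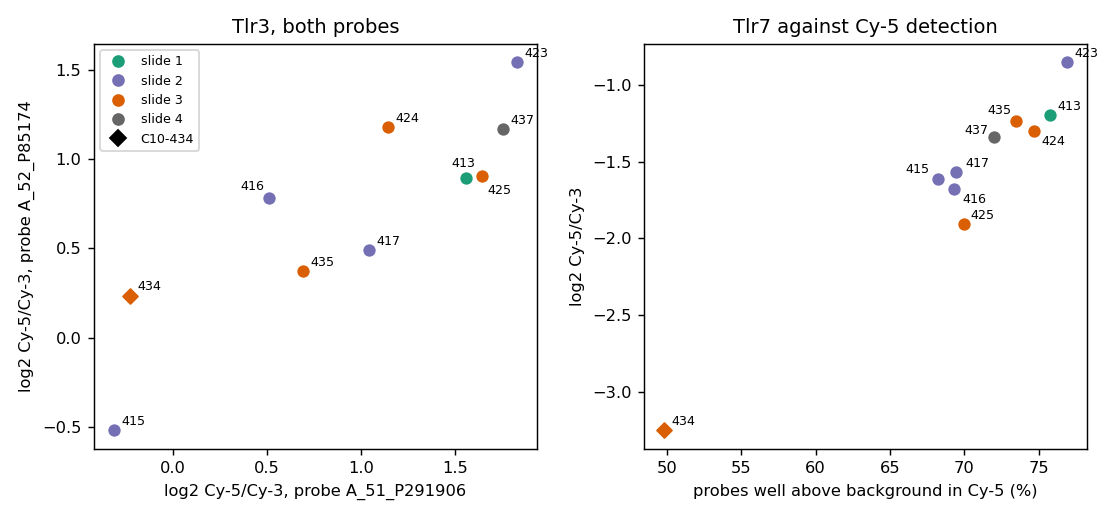
Left, log2 Cy-5/Cy-3 of the 2 Tlr3 probes against each other, and right, log2 Cy-5/Cy-3 of Tlr7 against the percentage of probes well above the Cy-5 background, with 1 point per array labelled by animal number. C10-415 is lowest and C10-423 highest for both Tlr3 probes, and C10-434 (diamond) lies apart at the lower left for Tlr7, at 49.8% and -3.25.

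Myd88, the adaptor that couples most Toll-like receptors to their kinases, was lower in the hemibrain with little spread. Its log2 ratio ranged from -2.03 (C10-423) over -1.76 to -1.63 (C10-415). Both dyes were well above background on all 10 arrays, at median signals of 1513 in Cy-5 and 5219 in Cy-3. The mean was -1.78 ± 0.12 (SD, n = 10), or 3.44-fold lower (3.14 to 3.77), with an adjusted p of 1.84e-11 from limma. Among the 23914 probes well above background in both dyes on at least 9 arrays, only 2.0% had a smaller SD, and the median SD was 0.28. For comparison, 11.7% of those probes varied less than Tlr9, 33.6% less than Tlr4, 52.7% less than Tlr2 and 96.8% less than Tlr7 (65.3% without C10-434). Part of this order follows from averaging, because Myd88, Tlr2 and Tlr4 had 10 spots per array and the other probes had 1.

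The replicate spots allowed measurement error to be set beside the difference between arrays. Spots of Myd88 within an array had a pooled SD of 0.101 in log2 ratio, so that array means would have an SD of 0.0321 from spot error alone, whereas their SD was 0.118, or 3.67 times as large. For Tlr2 the spot SD was 0.134 and the SD of array means 0.290, which is 6.68 times the 0.0435 from spot error. For Tlr4 the spot SD was 0.264 and the SD of array means 0.235, 2.65 times the 0.0886 from spot error. For all 3 genes the array means thus spread more than spot error alone would give, although for Tlr4 single spots of an array spread as widely as the array means. Labeling and hybridization differ between arrays too, so this excess is not a difference between animals alone. No spot of Myd88 carried an outlier flag, whereas 4 of 100 spots of Tlr2 and 9 of 100 of Tlr4 did and were set aside.

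**Figure D4:**
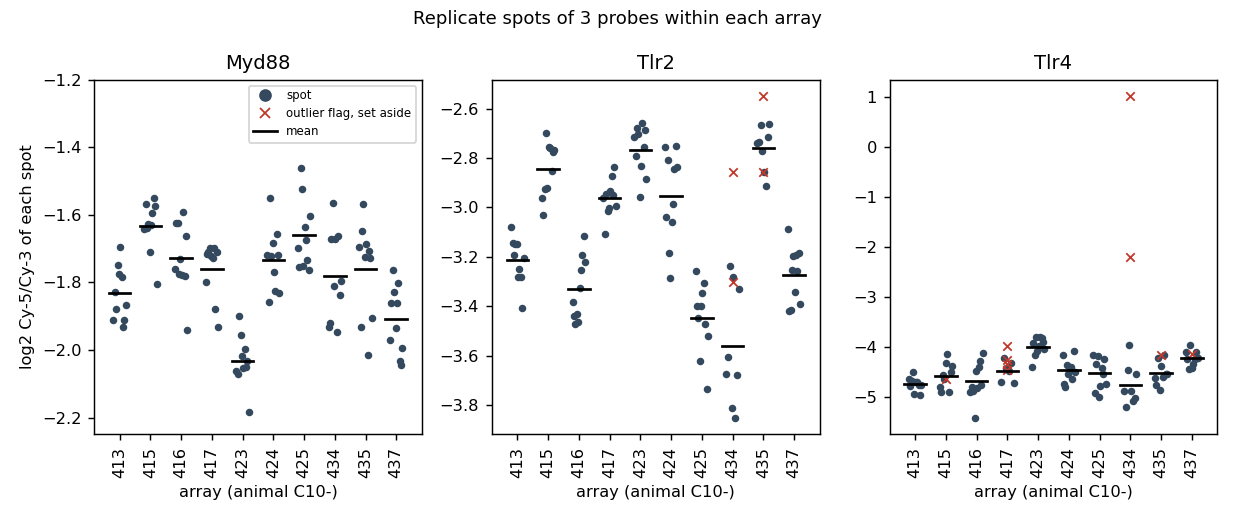
Log2 Cy-5/Cy-3 of each of the 10 replicate spots (points) on each array, with the mean of the spots used (bar) and spots with an outlier flag (crosses), for Myd88, Tlr2 and Tlr4. Vertical axes differ between panels. Myd88 is lowest on C10-423 and Tlr4 is highest there.

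The arrays at the extremes differed between genes. C10-423 had the highest ratio for both Tlr3 probes, Tlr4 and Tlr7 and the lowest for Tlr9 and Myd88. C10-434 had the lowest for Tlr2, Tlr4 and Tlr7 but not for Tlr9 or Myd88. The gene whose ratio across the 10 arrays was most like that of Tlr9, among 10532 genes well above background throughout, was Inhba (r = 0.930), a subunit of activin and inhibin. For Myd88 it was Timmdc1 (r = 0.978), an assembly factor of mitochondrial complex I. These were the highest of 10532 values, and are given without a test.

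The other genes of the pathway were read at their brightest probe, at which 41.0% of all named genes were higher in the hemibrain and 39.8% were lower. Of 63 pathway genes measured, out of 68 listed, 7 were higher, 49 were lower and 7 were not called, with a median log2 ratio of -1.51 against 0.04 over all named genes. Tlr11, Tlr12, Tlr13, Nfkb1 and Il12b had no matched probe. Among the partners that load ligand or carry receptors to their place, 9 of 11 were lower and 2 were higher (median -1.34). Cd14, which hands lipopolysaccharide to Tlr4, had a mean log2 ratio of -4.63, close to that of Tlr4. Lrrc33, a negative regulator now named Nrros, was at -1.79. Ly86, which pairs with the Tlr4 homologue Cd180, was higher, at 1.61, as was the folding factor Cnpy3, at 0.26.

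Of the other TIR adaptors, 3 of 4 were lower, a count that includes Ticam2, which was not well above background in either dye on any array. Tirap, which bridges Tlr2 and Tlr4 to Myd88, had a mean log2 ratio of -2.06 and Ticam1, the adaptor of Tlr3, one of -1.72. The Tlr3 ratio and that of its adaptor thus had opposite signs. Sarm1, an adaptor-like NAD-cleaving enzyme of neurons, was higher, at 2.01. Of the kinases and ubiquitin ligases downstream, 11 of 16 were lower, 2 were higher and 3 were not called (median -0.71). The lower ones include 1 gene not well above the Cy-5 background on any array. Tab2 and Traf6, which join the receptor complex to the kinase Map3k7, were at -1.25 and -1.22. Ikbkg, the scaffold of the IKK complex, was higher at its brightest probe, at 1.18, but its other 2 probes had the opposite sign, and Traf3 was higher, at 0.54.

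At the end of the pathway, 8 of 9 transcription factors were lower and none was higher (median -1.93). The lowest of those measured throughout were Nfkb2, a subunit of NF-kB, at -3.55, Fos, a part of AP-1, at -2.08, and Irf5, at -1.99. Of 13 target cytokines and enzymes, 11 were lower and 1, Il12a at 0.29, was higher (median -4.01). Only 3 of the 13 were well above the Cy-5 background on every array. The chemokines Ccl3, Ccl2 and Ccl5 had mean log2 ratios of -4.53, -4.31 and -4.01. Il6, Ifnb1 and Cxcl2 were not well above the Cy-5 background on any array, and the 11 lower include Il6 and Cxcl2. Inhibitors of the pathway were lower too, in 7 of 10 with 1 higher (median -1.58). Il1rl1, a receptor of the interleukin-1 family, was at -4.89, the deubiquitinase Tnfaip3 at -2.78 and the receptor-like Sigirr at -2.21, whereas Tollip, which restrains Irak1, was higher, at 1.09.

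**Figure D5:**
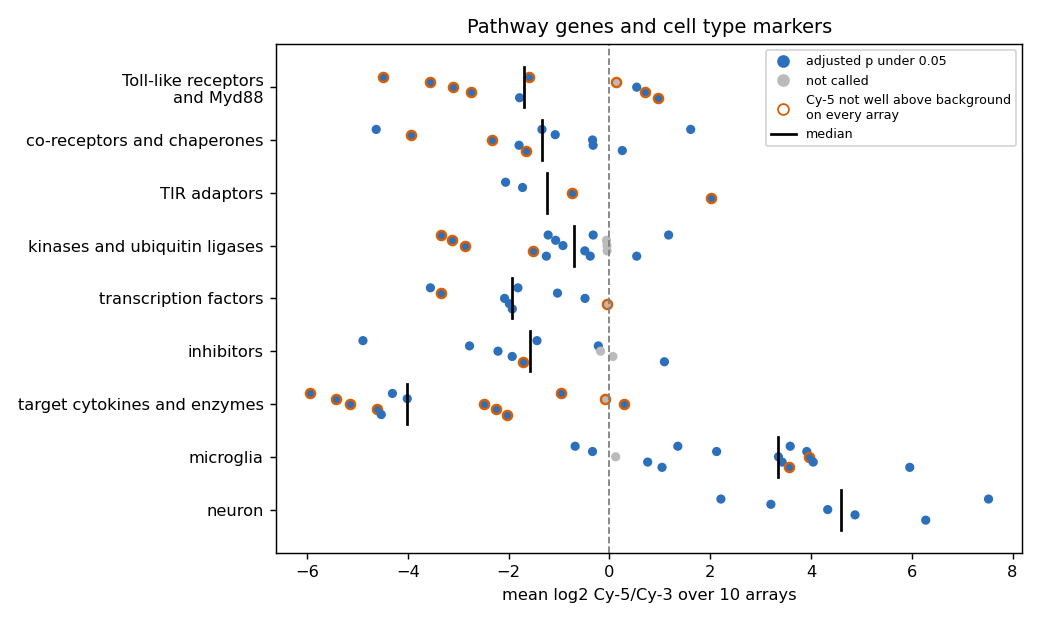
Mean log2 Cy-5/Cy-3 over the 10 arrays (horizontal axis), with 1 point per probe of the 10 genes or per gene of each pathway list, and of the microglia and neuron markers for comparison, with a bar at each median. Blue points passed the limma test and orange rims mark Cy-5 signals not well above background on every array. Pathway medians lie between -4.01 and -0.71, whereas those of microglia and neuron markers lie at 3.35 and 4.60.

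Cell type markers were read in the same way. Of 15 markers of microglia, 12 were higher in the hemibrain, 2 were lower and 1 was not called, with a median log2 ratio of 3.35. The lowest was Tyrobp, at -0.68, and the highest was P2ry12, which was not well above the Cy-3 background on any array. Markers of neurons (6 of 6, median 4.60), astrocytes (6 of 6, median 5.45) and oligodendrocytes (6 of 6, median 4.81) were higher, and all were well above the Cy-5 background on every array. The extremes were Syt1 at 7.52 and Eno2 at 2.21 for neurons and Slc1a2 at 10.1 and Gja1 at 0.65 for astrocytes, and the lowest oligodendrocyte marker was Mobp at 3.33. All 6 proliferation genes were lower (median -6.41), from Cdk1 at -3.18 to Ccnb1 at -7.67. Ccnb1 was well above the Cy-5 background on only 1 array, so the size of its ratio is less certain than its direction. Of 5 endothelial markers 3 were higher (median 2.16), from Cldn5 at 5.30 to Pecam1 at -0.30, which was not called. Of 11 markers of blood leukocytes 2 were higher and 4 were lower (median -0.02), from S100a9 at 2.87 to Ms4a1 at -6.92. Ms4a1 was well above the Cy-5 background on 5 arrays. The 2 higher include Ccr2, which like Ngp was not well above background in either dye on any array. These ratios go against the label of Cy-3 as a pool of hemibrains, and the cell types of the reference are not given in the sources used here. How far they set the ratios of the Toll-like receptors was not tested.

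Over the 13 microglial markers well above the Cy-5 background on every array, the mean ratio, centred per gene, lay between -0.12 and 0.06. A mean over genes varies less than its genes, so this range is not comparable with those of single probes. Their summed Cy-5 signal ranged from 47265 to 118494. Against this mean, Tlr4 (r = -0.766) and Tlr3 probe A_52_P85174 (r = -0.762) had adjusted permutation p of 0.0486 by Pearson's r, but 0.113 and 0.0786 by Spearman's rho (-0.673 and -0.733). Without C10-423 and C10-437, r was -0.360 for Tlr4 and -0.706 for Tlr3. Tlr3 probe A_51_P291906 also had an adjusted p of 0.0486 against the share of probes well above background (r = 0.690, and 0.509 without C10-423 and C10-434), but 0.0786 by rho (0.770). The slides hold at most 4 arrays, too few for these relations within a slide.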

How the data were processed

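The authors scanned 10 dual dye arrays and deposited the Feature Extraction (version 10.10.1.1) output of each. The deposited intensity columns hold, for each dye and on a linear scale, processed signals beside median and background-subtracted ones. The processed signals were already corrected for background and dye by that software. The authors also deposited a table of log2 Cy-5/Cy-3 ratios, for which the methods name GeneSpring, which correlated with the log10 ratio the software deposited for each spot at r of at least 0.997 on every array. The column medians of that table lay close to 0, and its direction follows from this match. A correlation does not show the scale. The log2 scale follows from equal values, such as a Tlr1 mean of -2.74 both in that table and from the processed signals.

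Log2 Cy-5/Cy-3 was taken from the processed signals, without control spots or spots flagged as outliers, and the spots of a probe were averaged. A probe counted as well above background where a share of at least 0.5 of its spots had the flag of that name. No spot was saturated. In Cy-3, 61.9% to 79.1% of probes were well above background. Precision is limited by the number of arrays and, for dim probes, by their distance from background. The 41174 probes were named by RefSeq accession (GRCm38.p6, used for names and promoters), and 27198 (66.1%) matched. Where a gene had several probes, the brightest was used, except that every probe of the 10 genes was reported. Ratios were tested against 0 with an intercept in limma (3.58.1, R 4.3.3) over all 10 arrays, with Benjamini-Hochberg adjustment and a threshold of 0.05. The arrays are separate animals. Intervals are 95% intervals of the fit. In data simulated for this test on 40060 probes, 100 were changed by a log2 ratio of 1 and 100 by 0.5. Of these, 82% and 43% were recovered, and 9 unchanged probes were called. In the real data 37.4% of probes were called higher and 39.5% lower. The adjustment depends on the share of changed probes, so the simulated rates do not carry over to the real data. Correlations over arrays used 100000 permutations. Figures and tables were made with Python 3.11.15, numpy 2.4.6, pandas 2.3.3, scipy 1.17.1 and matplotlib 3.10.9.

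The genes, pathway lists and marker lists were chosen with earlier results of these data known. The text names, per pathway list, the 3 genes of largest mean ratio among those well above the Cy-5 background with 1 sign on all arrays, target genes not well above the Cy-5 background on any array, the gene most like a fully measured receptor or Myd88, and the extremes of each marker list. One marker gene that this rule covers is not reported here. Sarm1, Ticam2, Cnpy3, Traf3, Tollip and Il12a were named after their values were seen. Alternatives were loess (span 0.3), median centring, normexp and background subtraction (both with an offset of 50), the deposited table, the slide as a random block, each slide of 4 arrays alone, leaving out C10-434, keeping outlier spots, a filter on dim probes, a log2 ratio of at least 1, all probes of a gene averaged, and other flags. Normexp and background subtraction were both followed by the same loess, so they differ from the main setting in more than the background. No sequence of the array probes and no protein sequence was used here.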

Additional observations from a re-analysis of the deposited data

Results flagged for a closer look

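In 13 of 37 measures over the 10 arrays, the value of C10-434 lay farther from its neighbour than Dixon's 95% criterion allows for 10 values. For independent measures chance flags about 1 in 20, or 1.85 of 37, on any array. These measures are not independent, because both dyes and their ratio come from the same 10 hybridizations. The count of flags is thus not a test against chance. In Cy-3 its processed signals were the lowest for Tlr1 (185, against 315 on the next array), Tlr2 (1965 against 3697), Tlr3 probe A_52_P85174 (19.0 against 38.9), Tlr4 (1145 against 2079), Tlr6 (328 against 597), Tlr7 (292 against 508) and Myd88 (2594 against 4646). In Cy-5 they were lowest for Tlr2 (167 against 343), Tlr4 (42.4 against 87.3), Tlr7 (30.7 against 141) and Myd88 (755 against 1422). Among the log2 ratios of the 10 probes, only that of Tlr7 was marked in this way, at -3.25 against -1.91. The centred mean ratio of the neuron markers was highest on the same array, at 0.64 against 0.18. Without C10-434 the same 9 probes were called, with the same signs.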

How the results depend on the processing

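The calls of Tlr1, Tlr2, Tlr4, Tlr6, Tlr7, Tlr9 and Myd88 kept their direction and their side of the threshold under each alternative normalization, background correction and choice of arrays or spots, over log2 ratios of -2.90 to -0.68, -3.18 to -1.87, -4.57 to -1.99, -3.60 to -1.03, -1.92 to -0.56, 0.45 to 0.74 and -1.79 to -1.27. The smallest sizes of the 6 lower probes came with normexp. The median over the 10 probes moved from -1.69 to -0.96 with background subtraction and to -0.62 with normexp. The offset of 50 added to both dyes pulls ratios of dim probes toward 0. Both settings also include loess, which alone gave a median of -1.47. The Tlr8 ratio turned to -0.0089 with loess, uncalled in both. Tlr3 probe A_52_P85174 was not called with normexp (0.13, limma adjusted p = 0.0993), nor on slide 2 (0.57, adjusted p = 0.144). Tlr3 probe A_51_P291906 was not called on slide 2 (0.77, adjusted p = 0.0747) or slide 3 (0.81, adjusted p = 0.0615), where 4 arrays remained. On slide 2 alone 1 probe, Tlr9, was called higher. The filter on dim probes left out Tlr1, Tlr6 and Tlr8. With a log2 ratio of at least 1 required, Tlr9 and Tlr3 lost their calls, so that 0 of the 10 probes were higher, against 3 by the limma adjusted p alone, 4 pathway genes were higher against 7, and 8433 of all probes were higher and 9515 lower against 15398 and 16283. Probes well above the Cy-5 background on all arrays numbered 5 of 10 with the positive and significant flag and 5 without C10-434, against 2. No scaling moved the median of all probes by more than 0.1. Each ratio already pairs both dyes of an array. No further pairing between arrays was possible because all arrays form a single group.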
